A study of Mus musculus with 8 samples.

Results

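The 10 genes described here encode the exchangers and carbonic anhydrases by which the colon absorbs salt without net charge movement, together with a colonic proton pump. They are Slc26a2, Slc26a3, Slc26a6, Slc9a2, Slc9a3, Car1, Car2, Car4, Car12 and Atp12a. The list was chosen with earlier results of these data known. Its genes were matched by symbol to the platform's probe annotation, which found all 10 genes, among 19087 named genes in all, on 16 probes. The measurements are colon RNA of 4 male mdr1a-/- mice fed the AIN-76A diet with 0.2% curcumin, a polyphenol of turmeric, and of 4 male mdr1a-/- mice fed AIN-76A alone, with 1 2-colour Agilent array per mouse. All 8 mice therefore lack the drug efflux transporter gene Abcb1a and are prone to colitis, and the labels put the mouse RNA in Cy3 and a reference RNA in Cy5. The labels give an age of 7 weeks, whereas the design text follows mice from 7 to 24 weeks. According to the design text, mice with little histological injury were taken from the curcumin diet and mice with much injury from the control diet, so the effects of diet and of injury cannot be told apart. Strain is labelled as Swiss on the control arrays only. The labels describe the reference as colon of Swiss mice on the same diet as the mouse it was paired with, whereas the design text speaks of 1 reference RNA. If the reference differed by diet, every change between the diets given here would also hold the difference between references. This was not tested.

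In the colon, sodium is absorbed through a sodium-proton exchanger in the apical membrane while chloride enters through an apical chloride-bicarbonate exchanger, so that salt moves in and protons and bicarbonate move out. Carbonic anhydrases inside the cell and on its surface interconvert carbon dioxide and bicarbonate and so supply both exchangers with their ions. Slc26a3 is the main apical chloride-bicarbonate exchanger, and its loss in humans causes congenital chloride diarrhoea. Slc9a3, also called NHE3, is the main apical sodium-proton exchanger.

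Every value is a log2 ratio of the mouse RNA to the reference RNA as normalized by the authors. The labels do not state which way the ratio runs. It was read here as mouse over reference, which is likely because the array medians of 6 liver genes lay between -3.30 and -3.04 on the curcumin arrays and between -3.05 and -2.76 on the control arrays and colon tissue should hold little liver transcript. Medians of 5 kidney genes were also below 0 on all 8 arrays, between -3.02 and -2.69 with curcumin and between -3.00 and -2.43 in control mice. This reading takes the reference to hold more liver and kidney transcript than the mouse colon did. The labels describe the reference only as colon, and its makeup was not tested. A ratio of reference over mouse would turn all signs given here. The array medians lay between -0.02 and -0.0092, missing features made up 11.4% to 23.8% of an array, and pairs of arrays correlated at 0.863 to 0.908 among curcumin mice, 0.773 to 0.907 among control mice and 0.730 to 0.826 between diets. Abcb1a, the disrupted gene, had log2 ratios of -0.39, -0.21, -0.20 and 0.05 in curcumin mice and -0.54, -0.43, -0.57 and -0.67 in control mice (change 0.37, SE 0.11, adjusted p = 0.0916 in limma). Both diets carry the disruption, and where the probe lies relative to it was not analysed here, so these values check no label. Slides came in 2 ranges of numbers: all control arrays and curcumin arrays 1 and 2 share 1 range of 6 arrays, and curcumin arrays 3 and 4 belong to the other.

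Promoters were to be shown for the genes with a probe that passed between the diets, as described below. Of these 5 genes, only Slc26a3 and Car4 were found in the promoter table. They cover 250 bases before to 50 bases after the annotated start in RefSeq's GRCm38.p6 table, both on the + strand, with Slc26a3 at chr12:31437969-31438268 and Car4 at chr11:84957504-84957803. Capitals mark matches to TATAAA (the core of the TATA box), TTTATNG (Cdx-like), GTTAAT (one arm of the HNF1 motif), CAAAG (shared by HNF4 and TCF motifs) and GGGCGG (GC box), searched on both strands.
Slc26a3: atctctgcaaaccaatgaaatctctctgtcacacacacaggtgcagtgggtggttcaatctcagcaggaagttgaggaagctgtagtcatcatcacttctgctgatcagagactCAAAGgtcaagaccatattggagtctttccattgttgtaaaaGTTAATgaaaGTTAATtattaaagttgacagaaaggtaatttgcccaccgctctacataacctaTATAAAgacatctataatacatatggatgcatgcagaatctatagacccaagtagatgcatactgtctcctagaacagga
Car4: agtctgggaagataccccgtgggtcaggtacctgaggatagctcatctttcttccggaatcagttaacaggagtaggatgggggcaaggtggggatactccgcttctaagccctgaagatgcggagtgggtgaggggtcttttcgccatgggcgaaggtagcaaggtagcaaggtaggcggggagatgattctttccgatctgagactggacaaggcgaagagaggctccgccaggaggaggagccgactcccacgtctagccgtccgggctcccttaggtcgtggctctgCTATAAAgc

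The Slc26a3 window held 2 matches to GTTAAT, 1 to CAAAG and 1 to TATAAA, the last beginning 30 bases before the start. Of the 32851 promoters in the table, 7.10% held GTTAAT and 0.548% held it at least 2 times, while 53.9% held CAAAG and 13.6% held TATAAA. The Car4 window held TATAAA and, overlapping it on the other strand, TTTATNG, a motif present in 10.9% of promoters. The TATAAA match begins 42 bases after the annotated start. Of the 5 members found in the promoter table, Slc26a6, Slc9a3 and Car12 held only GC boxes (1, 3 and 1 matches), which 35.7% of promoters held. These are matches of letters and not shown to be binding sites.

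Between the diets, 6 of the 15 member probes that could be tested rose with curcumin and none fell, at an adjusted p under 0.05 in limma over all features. Among all 33556 features tested, 4.33% passed, of which the risers were 1.94% and the fallers 2.39% of all features. The 6 probes belong to 5 genes: Slc26a3 with 2 probes, Car4, Slc26a2, Slc9a2 and Car2. The median log2 change of the 15 member probes was 0.97, against -0.02 over all features tested. In 9 member probes all curcumin values lay above all control values, and in 1 they lay below, where 5.24% and 6.77% of all features did so. Because the members were chosen with earlier results of these data known, these shares are a description and not a test of the list. In whole colon, fewer cells of a type and less RNA per cell cannot be told apart.

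**Figure D1:**
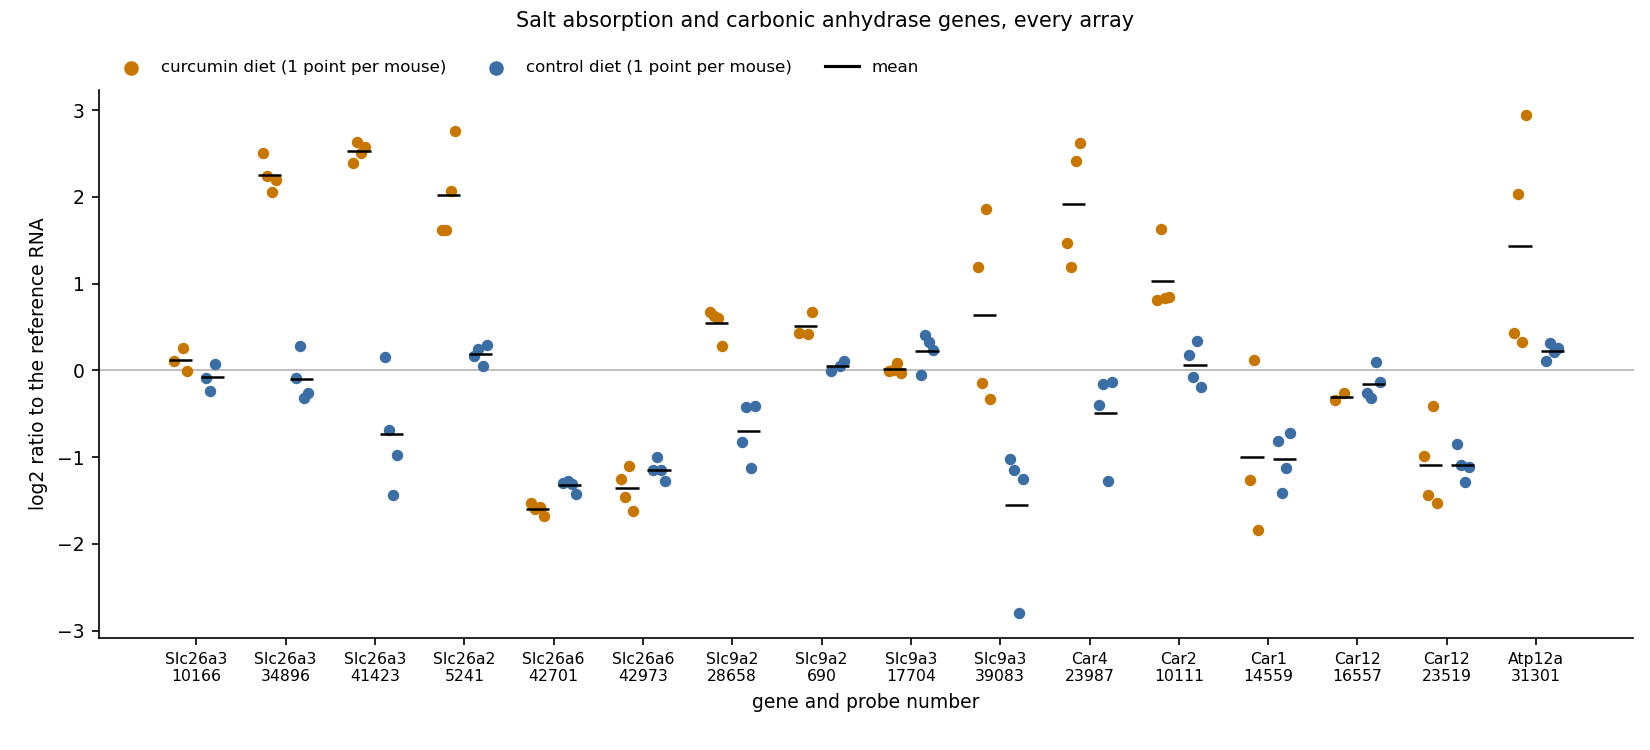
Log2 ratio to the reference RNA (vertical axis) for the 16 probes of the 10 genes (horizontal axis, gene and probe number), with 1 point per mouse, curcumin left and control right in each pair, and a line at each mean. The points of Slc26a3 probes 34896 and 41423 lie above 2 in all curcumin mice and below 0.3 in all control mice, while those of Slc9a3 probe 39083 and Atp12a are widely spread among the curcumin mice.

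Slc26a3, the apical chloride-bicarbonate exchanger, had the largest change of the 10 genes. Its probe 41423 had log2 ratios of 2.39, 2.64, 2.50 and 2.58 in curcumin mice, against 0.16, -0.69, -1.43 and -0.97 in control mice. The curcumin mice were nearly level with each other, and the lowest of them was more than 2 log2 units above the highest control mouse. The means were 2.53 ± 0.10 with curcumin and -0.73 ± 0.67 in control mice (SD, n = 4 each). This is a 9.59-fold rise (log2 change 3.26, SE 0.28, adjusted p = 0.00083 in limma), the largest increase but 1 among the 33556 features.

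Probe 34896 of Slc26a3 had log2 ratios of 2.50, 2.24, 2.06 and 2.19 with curcumin and of -0.09, 0.28, -0.32 and -0.26 in control mice. It rose 5.08-fold (log2 change 2.34, SE 0.15, adjusted p = 0.000448 in limma), with groups far apart and no single mouse standing out. The third probe, 10166, behaved otherwise. Its log2 ratios were 0.11, 0.26 and -0.01 on curcumin arrays 1, 3 and 4 and -0.08, -0.23 and 0.08 on control arrays 1 to 3, and the groups overlapped (log2 change 0.20, SE 0.12, adjusted p = 0.477 in limma). The platform annotation gives the 3 probes different source transcripts, AK035716 for 10166, BC037066 for 34896 and NM_021353 for 41423. Where each lies in the gene was not analysed here.

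Slc26a2, a sulfate transporter of the same family whose human form is mutated in diastrophic dysplasia, also rose. Its single probe had log2 ratios of 1.62, 1.62, 2.07 and 2.76 in curcumin mice and of 0.16, 0.24, 0.05 and 0.29 in control mice. Here the control mice were the uniform group and curcumin mouse 4 was the highest. The rise was 3.55-fold (means 2.02 ± 0.54 and 0.19 ± 0.10, SD, n = 4 each, for curcumin and control, log2 change 1.83, SE 0.23, adjusted p = 0.00362 in limma).

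Slc26a6, an exchanger of chloride for bicarbonate and oxalate that is prominent in the small intestine, did not rise. Probe 42701 had log2 ratios of -1.53, -1.59, -1.58 and -1.68 with curcumin and of -1.29, -1.28, -1.31 and -1.42 in control mice. The groups did not overlap, with curcumin below, but the difference was small and did not pass (log2 change -0.27, SE 0.08, adjusted p = 0.086 in limma). Probe 42973, annotated to the same transcript, gave -1.25, -1.45, -1.10 and -1.62 against -1.15, -1.003, -1.14 and -1.28 for the control mice, with overlap (log2 change -0.21, SE 0.12, adjusted p = 0.418 in limma). After quantile normalization the log2 changes were -0.14 (probe 42701, adjusted p = 0.397) and -0.12 (probe 42973, adjusted p = 0.666) in limma, and that of probe 42973 was -0.13 without curcumin 4.

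Among the sodium-proton exchangers Slc9a2 rose, a second apical exchanger of intestinal epithelium also called NHE2. Probe 28658 had log2 ratios of 0.68, 0.62, 0.61 and 0.28 in curcumin mice and of -0.83, -0.42, -1.12 and -0.41 in control mice. All curcumin mice were above their reference and all control mice below theirs. The rise was 2.36-fold (means 0.55 ± 0.18 and -0.69 ± 0.35, SD, n = 4 each, for curcumin and control, log2 change 1.24, SE 0.17, adjusted p = 0.00565 in limma). Probe 690 had values on 3 arrays of each diet, 0.43, 0.42 and 0.67 with curcumin and -0.01, 0.06 and 0.11 in control mice. These groups did not overlap either, but the difference missed the threshold (log2 change 0.46, SE 0.11, adjusted p = 0.0663 in limma).

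Slc9a3 gave 2 unlike probes. Probe 39083 had log2 ratios of 1.19, -0.15, 1.86 and -0.33 in curcumin mice 1 to 4, against -1.02, -1.15, -2.79 and -1.25 in control mice. Every curcumin mouse was above every control mouse, yet curcumin mice 2 and 4 were far below 1 and 3, and control mouse 3 was far below the other controls. The log2 change of 2.20 was the 13th largest increase on the array, but its SE of 0.54 left it short of the threshold (adjusted p = 0.0562 in limma, 0.0367 to 0.248 over the alternatives tried). Probe 17704 stayed near the reference level, with -0.0046, 0.0044, 0.08 and -0.03 in curcumin mice and -0.06, 0.40, 0.32 and 0.23 in control mice (log2 change -0.21, SE 0.11, adjusted p = 0.344 in limma).

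Car4, the carbonic anhydrase anchored by lipid to the outer face of the apical membrane, rose most among the enzymes. Its log2 ratios were 1.47, 1.19, 2.41 and 2.62 in curcumin mice and -0.39, -0.16, -1.28 and -0.13 in control mice. Groups were well apart, with curcumin mice 3 and 4 above mice 1 and 2. The rise was 5.32-fold (means 1.92 ± 0.70 and -0.49 ± 0.54, SD, n = 4 each, for curcumin and control, log2 change 2.41, SE 0.36, adjusted p = 0.00821 in limma). On the 6 arrays of the shared slide range the log2 change was 1.82 (SE 0.32, adjusted p = 0.0675 in limma, 0.00491 to 0.0675 over the alternatives tried).

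Car2, the fast cytosolic carbonic anhydrase, rose by less. Its log2 ratios were 0.81, 1.63, 0.83 and 0.85 with curcumin, against 0.18, -0.07, 0.34 and -0.19 in control mice. Curcumin mouse 2 stood above 3 otherwise level mice. The rise was 1.95-fold (log2 change 0.97, SE 0.20, adjusted p = 0.0287 in limma), and the call held in 3 of 8 fits that each left out 1 array. It held without curcumin 2 (log2 change 0.76, adjusted p = 0.0235), without curcumin 3 (0.0499) and without control 3 (0.0261). It was lost without curcumin 1 (adjusted p = 0.0543), curcumin 4 (0.0615), control 1 (0.0554), control 2 (0.0587) or control 4 (0.0871).

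Car1, a second cytosolic isoform that is abundant in colon, showed no common direction. Curcumin mice 2, 3 and 4 had log2 ratios of -1.26, 0.11 and -1.84, and control mice had -0.81, -1.41, -1.12 and -0.72. Curcumin mouse 3 was above, and mouse 4 below, all control mice. The value of curcumin mouse 1, 0.34, equalled the most frequent log ratio of its array, which 348 features shared, and was set aside. The log2 change was 0.02 (SE 0.41, adjusted p = 0.987 in limma), and 0.35 with that value kept, so a difference of this size was not detectable with these arrays.

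Car12, a carbonic anhydrase with a membrane-spanning segment that sits in basolateral membranes, had a log2 change near 0. Probe 23519 had log2 ratios of -0.99, -1.44, -0.41 and -1.53 in curcumin mice and of -0.85, -1.09, -1.29 and -1.12 in control mice. The controls lay inside the range of the curcumin mice (log2 change -0.0006, SE 0.23, adjusted p = 0.999 in limma). Probe 16557 had values on only 2 curcumin arrays, -0.34 and -0.26, beside -0.26, -0.32, 0.10 and -0.13 in control mice, and was not tested.

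Atp12a encodes the catalytic subunit of the non-gastric proton-potassium pump, which in rodents is found in the apical membrane of the distal colon. Its log2 ratios were 0.43, 2.04, 0.33 and 2.94 in curcumin mice 1 to 4 and 0.11, 0.31, 0.22 and 0.26 in control mice. Curcumin mice 2 and 4 were far above all others, while mice 1 and 3 lay just above the controls. With a SD of 1.27 among curcumin mice and 0.09 among control mice, the log2 change of 1.21 did not pass (SE 0.52, adjusted p = 0.258 in limma). It was 0.71 without curcumin 4 (adjusted p = 0.445 in limma) and 0.71 to 1.58 over the 8 fits that each left out 1 array.

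**Figure D2:**
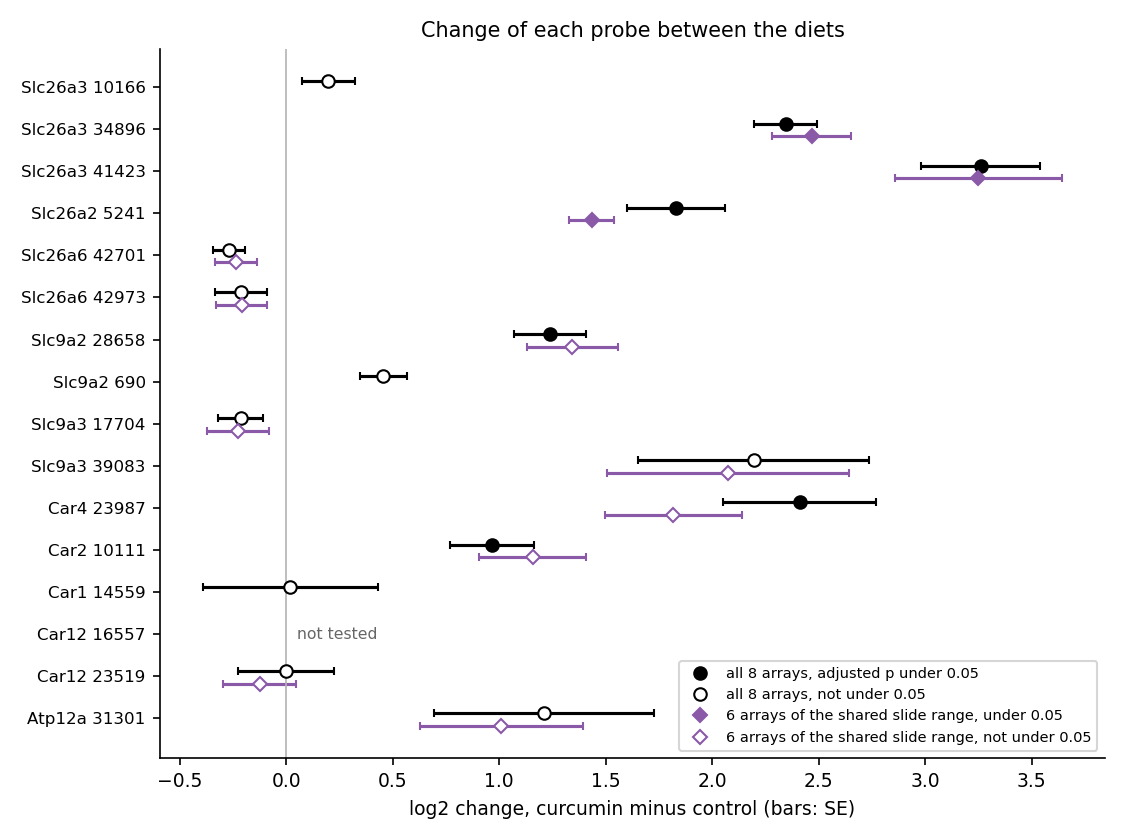
Log2 change between the diets, curcumin minus control (horizontal axis, bars are SE), for each member probe (vertical axis) with all 8 arrays (circles) and with the 6 arrays of the slide range that holds both diets (diamonds); filled symbols had an adjusted p under 0.05. With 6 arrays the fitted changes keep their side of 0 in every probe shown, and those of Slc26a2 and of Slc26a3 probes 34896 and 41423 still pass.

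**Figure D3:**
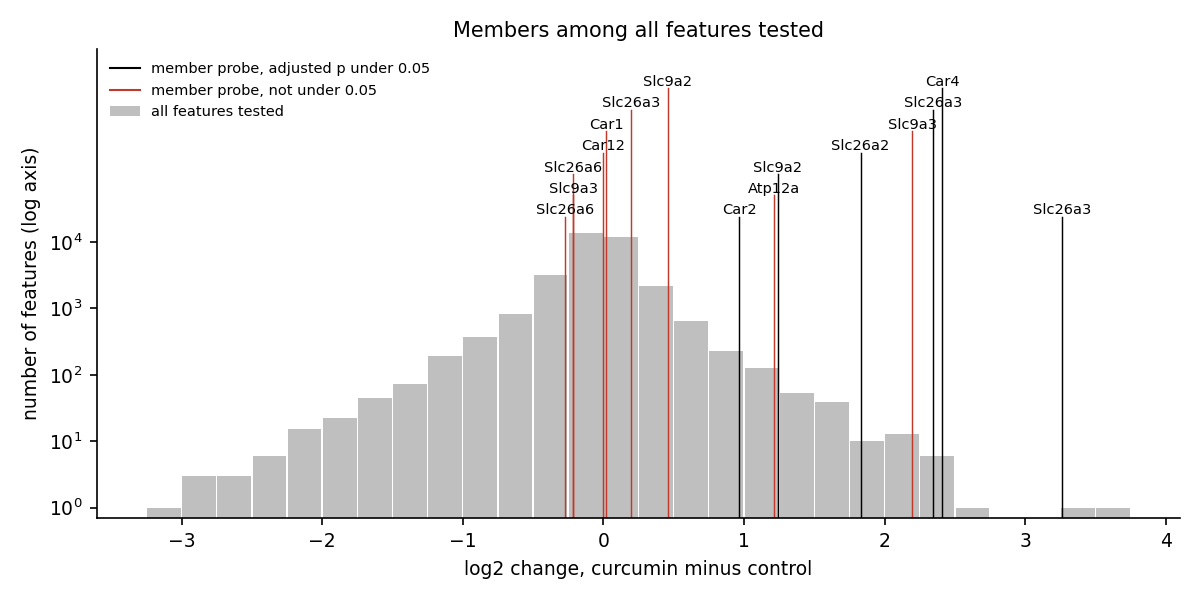
Number of features (vertical axis, log scale) by log2 change between the diets, curcumin minus control (horizontal axis), over 33556 features tested, with a line for each of the 15 member probes tested (black where the adjusted p was under 0.05). The member probes lie between -0.27 and 3.26, and those of Slc26a3 probes 34896 and 41423, Car4, Slc26a2 and Slc9a3 probe 39083 reach the sparse right-hand end.

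Fewer of these calls held on the shared slide range. That fit keeps only curcumin mice 1 and 2, so slide range and the smaller number of mice cannot be told apart. On the 6 arrays of the shared range, 3 member probes passed, where 0.747% of 31877 features did. These were Slc26a3 probe 34896 (log2 change 2.47, SE 0.19, adjusted p = 0.0149) and probe 41423 (3.25, SE 0.39, adjusted p = 0.0291), and Slc26a2 (1.43, SE 0.11, adjusted p = 0.0149), all in limma. Slc9a2 probe 28658 just missed (1.34, SE 0.22, adjusted p = 0.0521 in limma), and Car2 did not pass (1.16, SE 0.25, adjusted p = 0.11 in limma). With the slide range as a block on all 8 arrays, 5 member probes passed, where 1.09% of 33556 features did, and Car2 was the one lost (adjusted p = 0.0628 in limma).

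Single mice differed in ways that set the members apart from each other. Slc9a3 probe 39083 and Car1 were higher in curcumin mouse 3 than in curcumin mice 2 and 4, whereas Atp12a was higher in curcumin mice 2 and 4 than in mice 1 and 3. Slc26a3 probe 41423 was level over all 4 curcumin mice. Fxyd4, a regulatory subunit of sodium-potassium pumps in kidney and distal colon, had log2 ratios of 0.69, 2.58, -1.27 and 2.33 in curcumin mice and of -1.77, 0.98, 2.92 and -0.59 in control mice. Hoxd13, a homeobox gene of the hindmost gut, had 0.16, 1.38, -0.45 and 2.19 on probe 27616 in curcumin mice and -0.37, -0.20, 2.23 and -0.30 in control mice. Both were high in curcumin mice 2 and 4, as Atp12a was, and also in control mouse 3, where Atp12a was at 0.22 and Slc9a3 probe 39083 at its lowest. Neither passed between the diets (Fxyd4 log2 change 0.70, SE 1.08, adjusted p = 0.808, and Hoxd13 0.48, SE 0.70, adjusted p = 0.793, in limma). All these profiles come from the same 8 arrays and are given as a description, and the part of the sampled colon segment in the members' values was not tested.

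**Figure D4:**
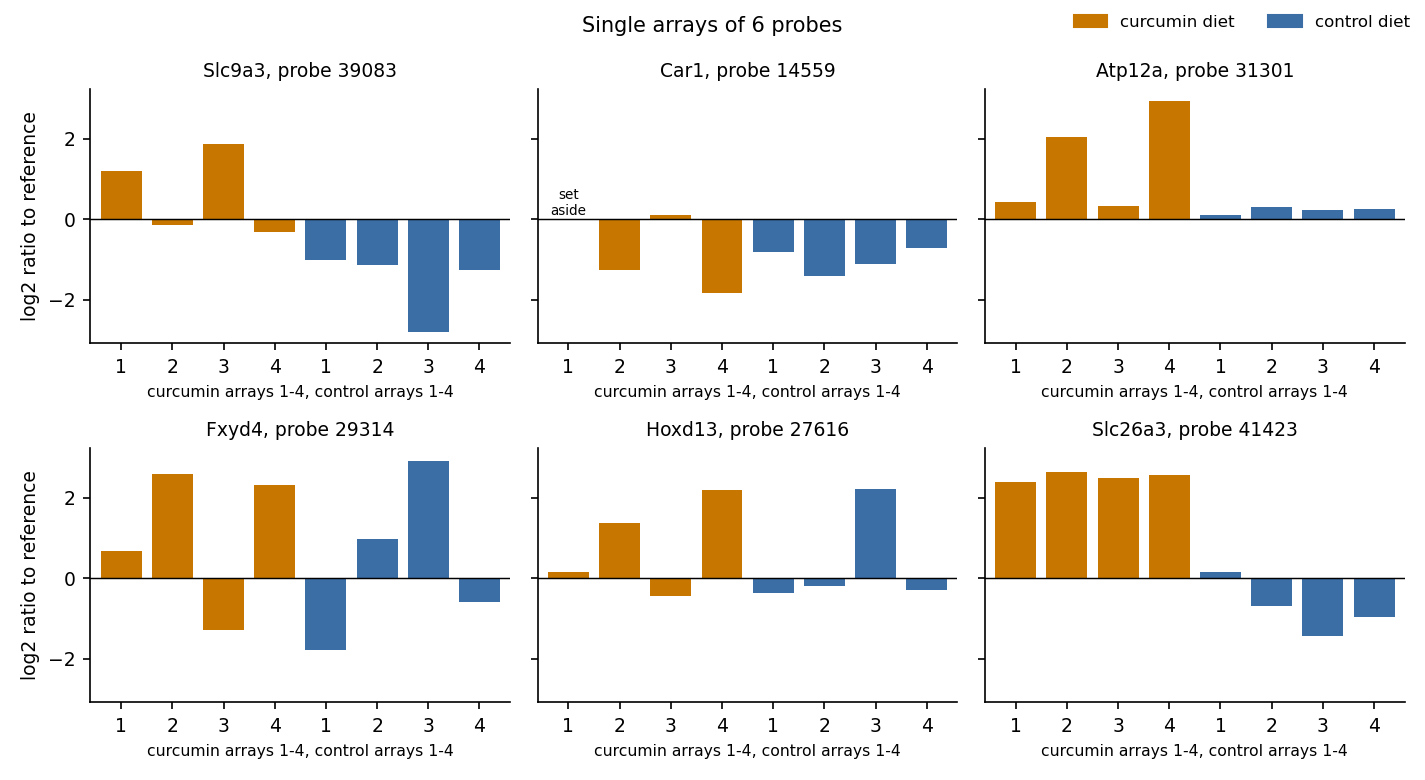
Log2 ratio to the reference RNA (vertical axes) on each array (horizontal axes, curcumin arrays 1 to 4 and then control arrays 1 to 4) for 4 member probes and for Fxyd4 and Hoxd13. Atp12a, Fxyd4 and Hoxd13 are high in curcumin mice 2 and 4, Fxyd4 and Hoxd13 also in control mouse 3, and Slc26a3 is high in all curcumin mice and in no control mouse.

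Markers of the cells in the tissue also differed between the diets. Of 7 leukocyte genes tested, 4 had a probe that fell with curcumin (Ptprc, Tyrobp, Laptm5 and Itgam) and none had one that rose, where 3.72% of named genes had a probe that fell. Ptprc, the pan-leukocyte antigen CD45, passed at 1 of 4 probes, with a log2 change of 0.10 at probe 36673, and Itgam, an integrin of myeloid cells, at 1 of 2 (probe 39411 at -0.29, adjusted p = 0.487 in limma). Over the 12 leukocyte probes with a value on all arrays, the median log2 ratio of single arrays was 0.27 to 0.69 with curcumin and 1.03 to 1.69 in control mice. Of 5 surface colonocyte genes tested, 3 had a probe that rose (Myo1a, Lypd8 and Cdhr2) and none had one that fell, where 2.91% of named genes had a probe that rose. Krt20, Aqp8 and Guca2a, also on this list, could not be tested, because 5, 3 and 6 of their values were the shared log ratio. Lypd8 probe 7495 held the shared log ratio on all 8 arrays. Cdhr2, a protocadherin of the brush border, passed at 1 of 2 probes (probe 3612 at 0.16, adjusted p = 0.404 in limma). The array medians over the 10 complete probes of this list were 0.09 to 0.45 with curcumin and -0.48 to -0.06 in control mice.

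For epithelium as a whole only 3 of 8 marker genes could be tested, because 8 of its 10 probes held the value shared by many features on at least 1 array, and both probes of the keratin gene Krt8 did so on all 8. Epcam (log2 change 0.39, adjusted p = 0.24), Cdh1 (0.32, adjusted p = 0.273) and Elf3 (0.85, adjusted p = 0.147) did not pass in limma. In this list values were set aside more often on curcumin arrays, so that Krt19 had values on all 4 control arrays and on no curcumin array, and only the 2 probes of Cdh1 and Elf3 had values on all arrays. Of 6 smooth muscle genes tested none passed, with array medians over 9 complete probes of -0.11 to 0.26 for curcumin and 0.02 to 0.32 for control, and neither of 2 red blood cell genes passed. Of 7 genes of hindgut position 1 passed, Hoxa13, which rose on both probes (log2 changes 0.96 and 0.92, adjusted p = 0.016 and 0.0169 in limma). The others did not share a direction. Hoxb13 and Cdx2 had log2 changes of 1.33 and 0.74, and Hoxd13 had 0.20 and 0.48. Hoxd10, Hoxd11 and Hoxd12 had -0.16, -0.03 and -0.12. The array medians over the 8 complete hindgut probes were 0.64 to 1.08 for curcumin and -0.08 to 0.32 for control, and with 1 further probe, of Hoxd13, the curcumin range was 0.0042 to 1.42. A log ratio cannot show that a marker is absent. The part of these markers in the members' changes was not tested.

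The genes whose arrays ran most like those of 2 members were found by the mean absolute difference, over the 8 arrays, between profiles centred on their own means. Nearest to Slc26a3 probe 41423 were Kcne3, a potassium channel subunit (0.46 log2 units), Scin, an actin-severing protein (0.55), and Hao2, a peroxisomal oxidase (0.57). Nearest to Car4 were Slc13a2, a dicarboxylate transporter (0.29), the member Slc26a2 (0.30) and Gsdmc2, a gasdermin (0.34). All profiles share the 8 arrays and the diets.

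Other genes of the pathway were read in the same way. In 6 lists of related genes, 45 of 57 genes could be tested, of which 4 rose and 1 fell at 1 or more probes, where 2.91% of named genes had a probe that rose and 3.72% a probe that fell. The median log2 change over their 66 probes was 0.0085. Without control 4, on the shared slide range and with the slide range as a block, none of the related genes passed. In these settings 1.84%, 0.747% and 1.09% of all features passed, against 4.33% in the main fit. Only 1 related gene passed without curcumin 4 or control 1, where 2.06% and 2.78% of all features did. Without curcumin 1 or curcumin 3, 2 related genes passed (2.23% and 3.04% of all features). Without control 3, 3 related genes passed (5.46% of all features).

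None of 7 other SLC26 anion exchangers passed. The smallest p values were those of Slc26a1, a sulfate transporter (log2 changes -0.34 and -0.15, adjusted p = 0.435 and 0.438), Slc26a5, the motor protein of outer hair cells (-0.27, adjusted p = 0.66), and Slc26a7, an anion transporter of stomach and kidney (0.15, adjusted p = 0.675), all in limma. Of the other sodium-proton exchangers only Slc9a4 and Slc9a8 could be tested. Slc9a8, also known as NHE8, had log2 changes of 0.23, 0.07 and -0.31 on 3 probes, and Slc9a4, a basolateral exchanger best known from stomach, -0.10 and -0.37, and none passed (lowest adjusted p = 0.222 in limma).

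Of 12 other carbonic anhydrases 1 rose. Car3, the slow isoform abundant in muscle and fat, had log2 ratios of -1.81, -0.99, -2.03 and -1.01 on probe 33228 in curcumin mice, against -3.81, -2.40, -3.72 and -3.93 in control mice. Groups did not overlap (log2 change 2.005, SE 0.36, adjusted p = 0.0181 in limma), but its other probe, 12575, gave -0.08 (adjusted p = 0.732 in limma). Car13, Car1, Car3 and Car2 lie next to each other on chromosome 3 in GRCm38.p6. Within that cluster Car2 rose, Car3 rose on 1 of 2 probes, and Car1 and Car13, another cytosolic isoform (log2 change -0.53, SE 0.24, adjusted p = 0.288 in limma), did not pass. Car14, a membrane-spanning isoform (-0.34, adjusted p = 0.192), and Car10, a relative without catalytic activity (0.24, adjusted p = 0.321), did not pass either in limma.

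Among 10 scaffolds and regulators of the exchangers, 1 rose. It was Dpp4, a brush border peptidase that binds NHE3 in kidney, at probe 35672 (log2 change 0.55, SE 0.13, adjusted p = 0.0441 in limma) and not at its probes 838 (0.0095) and 36887 (0.24). Slc9a3r1, the PDZ scaffold NHERF1 that holds NHE3 and Slc26a3 at the apical membrane, had log2 ratios of -0.67, -0.77, 0.71 and 0.55 in curcumin mice and -0.99, -1.44, -1.38 and -1.09 in control mice. Curcumin mice 3 and 4, which are those of the other slide range, were the high ones, and the log2 change of 1.18 did not pass (SE 0.33, adjusted p = 0.0872 in limma). Chp1, a calcium-binding partner that sodium-proton exchangers need, had log2 changes of 0.58, 0.63 and 0.61 on 3 probes (adjusted p = 0.0553, 0.0817 and 0.067 in limma). Pdzd3, a further PDZ scaffold, had 0.55 (adjusted p = 0.0925 in limma).

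Of 10 basolateral ion transport genes tested, 2 rose and 1 fell. Clcn2, a basolateral chloride channel of surface colonocytes, had log2 ratios of 0.73, 0.34, 1.31 and 0.69 on probe 4822 with curcumin and -0.15, -0.11, -0.13 and -0.14 in control mice. The control mice were level and all curcumin mice above them (log2 change 0.90, SE 0.17, adjusted p = 0.0225 in limma), and the second probe, 41896, gave 0.71 (adjusted p = 0.051 in limma). Slc12a7, the potassium-chloride cotransporter KCC4, rose by a log2 change of 0.40 (SE 0.09, adjusted p = 0.0473 in limma). Slc12a4, the widely expressed cotransporter KCC1, fell, with a log2 change of -0.45 (SE 0.10, adjusted p = 0.0376 in limma). Slc4a2, a basolateral chloride-bicarbonate exchanger, had 0.44 (adjusted p = 0.105 in limma), and the bicarbonate cotransporter Slc4a4 had 0.07, 0.46 and 0.02 on 3 probes. The sodium pump subunit Atp1b3 had -0.02, -0.27 and -0.32 (lowest adjusted p = 0.249 in limma), and Atp1b1 could not be tested because 3 of its 4 curcumin values were the shared log ratio. Of the gastric and accessory pump subunits, Atp4b, the gastric pump's beta subunit (-0.07, adjusted p = 0.768), and Fxyd3, a small pump regulator (0.10, adjusted p = 0.824), did not pass in limma, and the values of Fxyd4 are given with Atp12a.

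**Figure D5:**
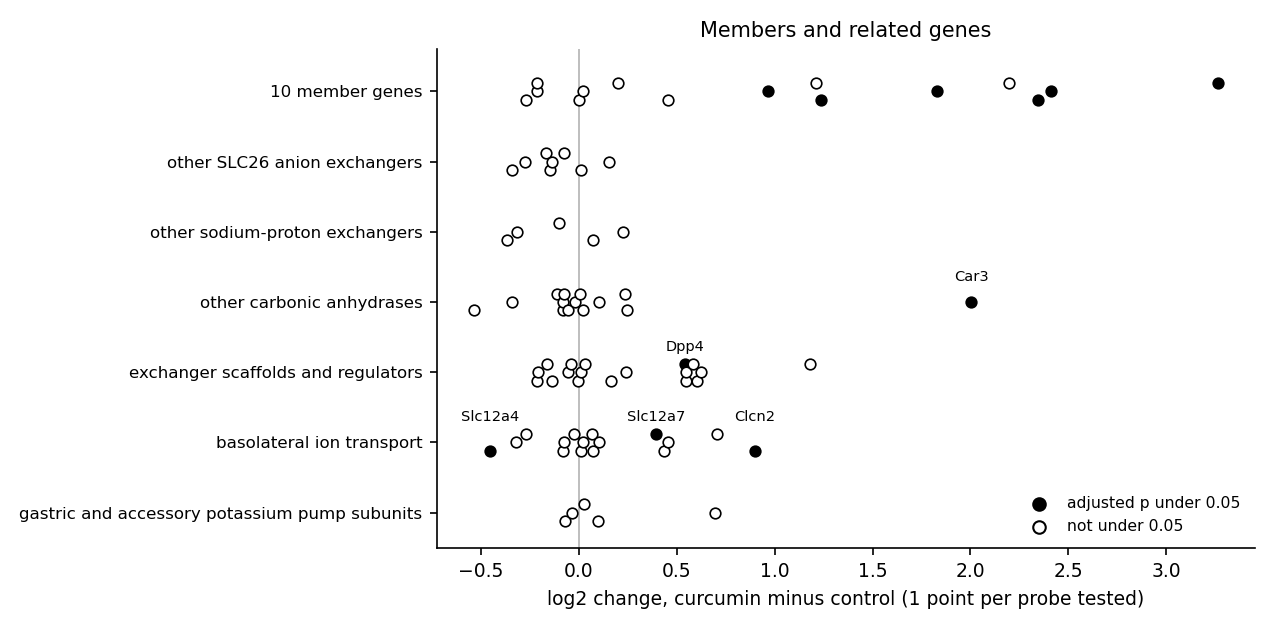
Log2 change between the diets, curcumin minus control (horizontal axis), for each probe tested of the 10 genes and of 6 lists of related genes (vertical axis), filled where the adjusted p was under 0.05. The filled points of the related lists are Car3, Dpp4, Clcn2 and Slc12a7 to the right of 0 and Slc12a4 to the left.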

How the data were processed

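The authors deposited normalized log2 ratios for 44290 features on 8 arrays; the submitters' processing notes name limma without a version, and the log base (2, limma's scale), centring and direction are not given in the sources used here. Array medians near 0 show that values were centred. Per the labels' protocols, RNA was amplified from an oligo-dT primer and labelled with Cy3 (mouse) or Cy5 (reference). Precision is limited by how few arrays there are, and changes had a median SE of 0.12.

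A single symbol was given for 32042 features, several for 47 and none for 12201, and 31906 matched GRCm38.p6 by gene identifier. Between 191 and 397 features of an array held its most frequent log ratio exactly (within 1e-09), and that value was set aside as missing. Probes were kept apart. The 33556 features with values on at least 3 arrays per diet entered a per-probe fit, curcumin minus control without covariates, by lmFit and eBayes of limma 3.58.1 (R 4.3.3), two-sided, with Benjamini-Hochberg adjustment over all of them and a threshold of 0.05; 5969 had an unadjusted p under 0.05. SE is the moderated standard error of limma, and the fit was tested on simulated data. Figures were drawn with Python 3.11.15 and matplotlib 3.10.9.

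The members and gene lists were chosen with earlier results of these data known. Named were all member probes, each related gene called plus up to 3 per list with the smallest p, the 3 genes nearest to Slc26a3 and to Car4, and Abcb1a; Hoxd13 by array, and the genes nearest to Atp12a and Slc9a3, were chosen after their values were seen. Alternatives were other scalings, filters, weights and blocks, and leaving out each array. Each array is an individual mouse's RNA per the design text. Same-numbered arrays of the 2 diets had deviations that correlated at 0.167, 0.217, -0.0124 and -0.0138, so the numbers were not taken as pairs.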

Additional observations from a re-analysis of the deposited data

Results flagged for a closer look

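In 26 groups of 4 values tested for an array far from the other 3, 2 were found, where chance gives about 1 in 20. Slc9a3 probe 39083 had -2.79 in control mouse 3, with the next control at -1.25. Car2 had 1.63 in curcumin mouse 2, with the next curcumin mouse at 0.85.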

How the results depend on the processing

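Member probes with an adjusted p under 0.05 in limma numbered 6, and 3 on the shared slide range alone; the other settings gave 5 to 8, leaving out 1 array 5 to 6, and none called a member lower. Both Slc26a3 probes 34896 and 41423 and Slc26a2 passed in all 17 alternatives, and Slc9a2 probe 28658 and Car4 in 16. Slc9a2 probe 690 passed after quantile normalization (adjusted p = 0.0492) and with array weights (0.047), and Slc9a3 probe 39083 with array weights (0.0367). All features called numbered 1453, and 2374 with array weights, 968 with the replicate block, 367 with the slide range as a block, 238 on the shared range alone and 601 (without control 4) to 1758 (without control 3) with 1 array left out; their split of 651 higher and 802 lower became 783 and 624 after quantile normalization, 203 and 164 with the slide block and 151 and 87 on the shared range. Related genes called numbered 5, and 3 with the replicate block, 0 with the slide block, 0 on the shared range alone and 0 to 5 with 1 array left out. With the replicate block the only member call lost was Car2 (adjusted p = 0.0578); curcumin mice 1 and 2 correlated best with the control of their own number, and 3 and 4 did not. The Car1 change of 0.02 became -0.12 with array weights, -0.25 with the slide block and -0.11 to 0.12 with 1 array left out. The Car12 change of -0.0006 became 0.10 after quantile normalization and -0.23 to 0.15 with 1 array left out. Averaging the probes of a gene called the same 5 member genes, with Slc26a3 at 2.17 and Slc9a3 at 0.99 (adjusted p = 0.0841). The cause of these shifts was not tested.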

Other observations

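The profiles nearest to the 2 members that varied most among the curcumin mice were looked up by the same distance, a choice made after their values were seen. Nearest to Atp12a were Slc37a2, a sugar-phosphate exchanger (0.24 log2 units), Tnni1, a troponin subunit of slow muscle (0.24), and Kyat1, a kynurenine aminotransferase (0.33). Slc37a2 had log2 ratios of 0.53, 1.60, -0.34 and 2.15 in curcumin mice 1 to 4, and Tnni1 had -0.52, 0.86, 0.0011 and 1.68, so both were highest in mice 2 and 4. Of these 3 genes Kyat1 rose with curcumin (log2 change 1.56, SE 0.34, adjusted p = 0.0345 in limma). Nearest to Slc9a3 probe 39083 were Aqp4, a water channel (0.43), Dpep1, a membrane dipeptidase (0.47), and Ethe1, a mitochondrial enzyme of sulfide breakdown (0.51). Dpep1 had 0.26, -1.10, 0.61 and -0.97 in curcumin mice, higher in mice 1 and 3 than in mice 2 and 4, as Slc9a3 probe 39083 was.

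Of the 7 hindgut genes tested, Cdx2 and Hoxb13 were picked after the values were seen. They varied over the curcumin mice along with different members. Cdx2, an intestinal homeobox gene, had log2 ratios of 1.16, 0.21, 1.55 and 0.31 in curcumin mice and -0.21, 0.66, -0.82 and 0.64 in control mice, higher in curcumin mice 1 and 3 and lowest in control mouse 3, as Slc9a3 probe 39083 was. Hoxb13, a homeobox gene of the hindmost body, had 1.81, 2.69, 1.61 and 3.08 in curcumin mice and 0.49, 1.02, 1.48 and 0.88 in control mice, with curcumin mice 2 and 4 highest, as for Atp12a. Neither passed between the diets in limma (Cdx2 log2 change 0.74, adjusted p = 0.383, and Hoxb13 1.33, adjusted p = 0.0584). Hoxa13, the only hindgut gene that passed, followed neither pattern, with curcumin mouse 2 lowest and mouse 4 highest. Its log2 ratios in curcumin mice were 1.23, 1.06, 1.58 and 1.88 on probe 5746. On probe 19723 they were 1.31, 1.07, 1.31 and 1.84. The part of colon position in these patterns was not tested.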
